A study of Mus musculus with 6 samples.

Results

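The AU-rich new lncRNAs are the deposited transcripts in which guanine and cytosine together made up at most 33% of the bases. They were 382 of the 8040 new lncRNAs deposited for this series (4.75%), and the other 7658 are called the remaining records. The rule used base content alone and no measure of expression. The study sequenced RNA of the brain cortex around the bleeding area in adult male C57BL/6 wild type mice (C57BL/6 J in the study's methods), in 3 control libraries and in 3 libraries taken 24 h after subarachnoid haemorrhage (SAH). SAH was produced by endovascular perforation, control mice were operated on but not perforated, and each library pooled the tissue of 3 mice. A new lncRNA was a long transcript that the authors could match to no known mRNA or lncRNA and to which they assigned no coding potential. Each record holds a sequence, a predicted secondary structure and a folding energy, pooled over all libraries, so control and SAH mice could not be compared from the records, which give no read counts. Genome position, exons and the transcribed strand are not part of a record, and "given strand" below means the sequence as deposited.

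Long non-coding RNAs are transcripts that are not translated into known proteins, and many act through the proteins and RNAs that bind them. A high share of adenine and uracil matters for such binding. AU-rich elements, built around the pentamer AUUUA, are bound by proteins that speed up or slow down RNA decay, such as tristetraprolin and HuR. A and U also pair more weakly than G and C, and all 3 stop codons begin with U, so base content bears on folding and on the length of open reading frames.

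The lncRNA of lowest GC content was TCONS_00208150, with 282 nt and 25.5% G and C. It is printed whole, from 5′ to 3′ on the given strand, to show what so low a content looks like, with each G and C in capitals.
TCONS_00208150: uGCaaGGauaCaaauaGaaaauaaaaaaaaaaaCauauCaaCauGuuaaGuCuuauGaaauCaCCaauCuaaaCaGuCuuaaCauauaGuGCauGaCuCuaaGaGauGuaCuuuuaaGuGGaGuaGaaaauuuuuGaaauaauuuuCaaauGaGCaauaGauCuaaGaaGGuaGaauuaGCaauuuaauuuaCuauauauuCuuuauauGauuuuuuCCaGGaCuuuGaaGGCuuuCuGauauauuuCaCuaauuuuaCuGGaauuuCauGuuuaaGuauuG
Even in this transcript G and C were spread along the whole length, and the longest stretch of A was 11 nt. Lower values were reached within transcripts. In 100-base windows the lowest GC content of any AU-rich lncRNA was 10%, found among others in TCONS_00033474 and TCONS_00085630, which were picked out after the values were seen. Bases 292 to 391 of TCONS_00033474 are one of these windows, again with G and C in capitals.
TCONS_00033474: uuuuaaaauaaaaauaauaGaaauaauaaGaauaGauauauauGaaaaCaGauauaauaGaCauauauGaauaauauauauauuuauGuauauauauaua

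The 10 AU-rich lncRNAs of lowest GC content lay between 25.5% and 27.2%. After TCONS_00208150 came TCONS_00243983 with 25.8% over 306 nt, TCONS_00171957 with 26.2% over 562 nt and TCONS_00171960 with 26.3% over 685 nt. TCONS_00222789, TCONS_00010912, TCONS_00076448, TCONS_00069855, TCONS_00247825 and TCONS_00249314 followed, with 455 to 1189 nt. The AU-rich lncRNAs had no gap from the rest at the limit. Just inside it were TCONS_00138596, TCONS_00127822 and TCONS_00222712, at 32.995%, 32.993% and 32.971%, and just outside it TCONS_00067418, TCONS_00069881 and TCONS_00182880, at 33.003%, 33.009% and 33.011%. The median was 31.4% G and C in the AU-rich lncRNAs and 41.9% in the remaining records, values that the rule itself set.

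**Figure D1:**
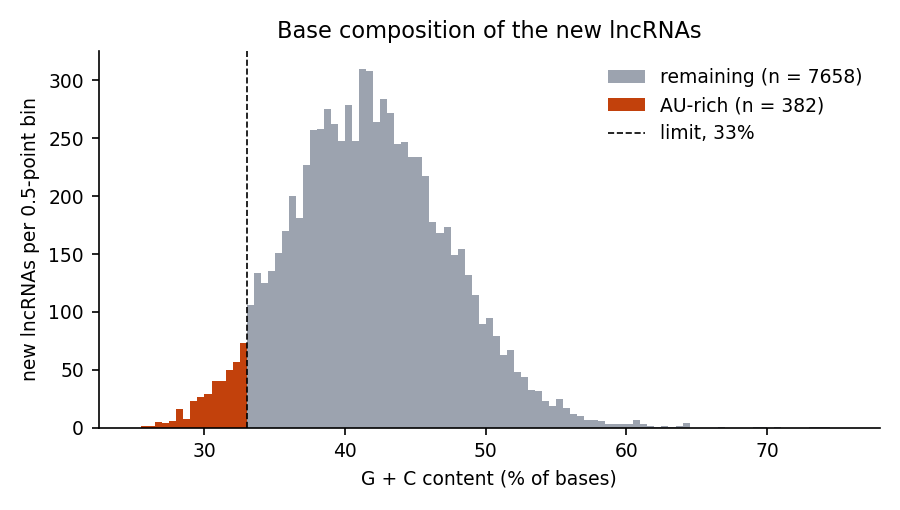
The number of new lncRNAs (vertical axis) in bins of GC content in percent of bases (horizontal axis), AU-rich in orange and remaining in grey, with the limit of 33% dashed. The 382 AU-rich lncRNAs form the lower tail of a single peak, with no gap at the limit.

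GC content was also read along the transcripts. Divided into 10 parts of equal length, the AU-rich lncRNAs had a mean GC content of 32.3% ± 7.62 (SD, n = 382) in the part at the 5′ end and between 30.4% and 31.4% in the other parts. The SD in the other parts was between 6.03 and 6.61, larger than the differences between parts. In the remaining records the 5′ part had a mean of 42.8% ± 8.74 (SD, n = 7658) and the other parts 42.1% to 42.8%. Values of single windows follow in part from the limit itself and are a description. The highest 100-base window had a median of 44% G and C, against 56% in the remaining records. A window above 50% was found in 47 of 382 AU-rich lncRNAs (12.3%) and in 6461 of 7658 remaining records (84.4%).

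A and U contributed about equally. The mean was 34.9% ± 3.23 A and 34.04% ± 3.20 U (SD, n = 382), and 215 of 382 AU-rich lncRNAs had more A than U (56.3%, Wilson 95% interval 51.3 to 61.2), beside 52.8% of the remaining records. A few were strongly one-sided. A exceeded U by 10 percentage points or more in 27 AU-rich lncRNAs (7.07%, 4.90 to 10.1) and in 267 remaining records (3.49%, 3.10 to 3.92). U exceeded A by as much in 12 AU-rich lncRNAs (3.14%, 1.81 to 5.41) and in 193 remaining records (2.52%, 2.19 to 2.90). Since the rule fixes the sum of A and U and not their balance, the balance is a description that the rule did not use.

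**Figure D2:**
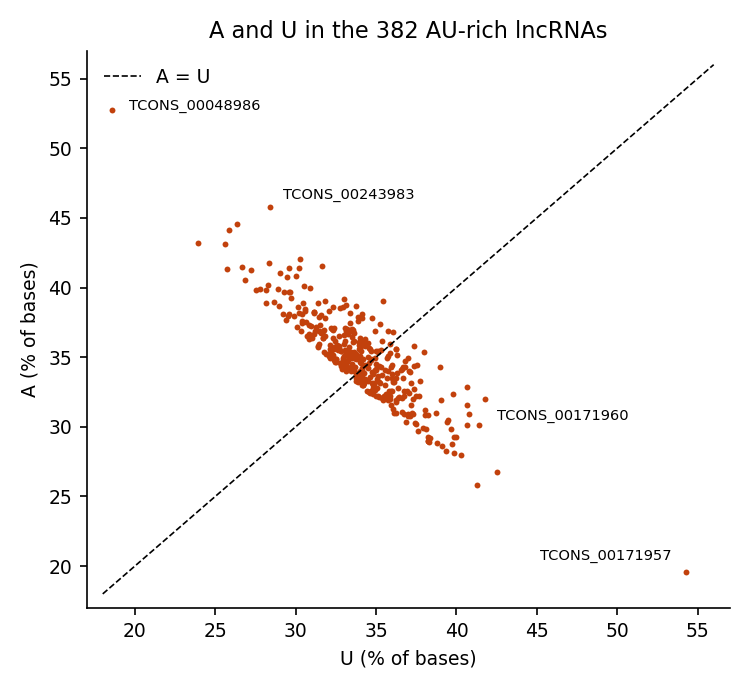
The share of A (vertical axis) against the share of U (horizontal axis), both in percent of bases, with 1 point for each of the 382 AU-rich lncRNAs and equal shares dashed. TCONS_00048986 (A) and TCONS_00171957 (U) lie far from the others, at opposite ends.

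The most one-sided transcript in each direction held many copies of a sequence of 6 bases (hexamer). TCONS_00048986, 948 nt long, was 52.7% A and 18.6% U, and TCONS_00171957 was 19.6% A and 54.3% U. TCONS_00185363 and TCONS_00251569 came next in excess of A, with 43.2% and 44.2% A. TCONS_00075210 and TCONS_00222697 came next in excess of U, with 42.5% and 41.3% U. In TCONS_00048986 the hexamer CCCUAA occurred 15 times, the most in any of the 8040 records, and the next highest record held 7. In TCONS_00171957 the complementary hexamer UUAGGG occurred 9 times, again the most of all records, and the next highest held 6. The mean over all records was 0.27 for each hexamer, and both hexamers were chosen after the sequences were seen. UUAGGG is the unit of the telomeric repeat of mammals in RNA letters. Bases 90 to 269 of the first and 376 to 555 of the second transcript are shown, with the hexamer in capitals.
TCONS_00048986: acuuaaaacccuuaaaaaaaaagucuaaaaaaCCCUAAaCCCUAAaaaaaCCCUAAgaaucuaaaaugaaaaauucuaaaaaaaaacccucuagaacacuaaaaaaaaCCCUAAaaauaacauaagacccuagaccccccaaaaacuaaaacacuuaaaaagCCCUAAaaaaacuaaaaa
TCONS_00171957: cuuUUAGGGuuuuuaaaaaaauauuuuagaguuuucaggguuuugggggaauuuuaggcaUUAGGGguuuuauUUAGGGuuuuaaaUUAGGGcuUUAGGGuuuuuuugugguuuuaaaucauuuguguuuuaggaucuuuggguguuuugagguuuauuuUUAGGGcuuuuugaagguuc
The hexamers lay among runs of A in the first and among runs of U in the second. TCONS_00171960 was rich in U along its 5′ part and rich in A along its 3′ part. Its bases 1 to 407 were 58.2% U with 4 copies of UUAGGG, and bases 408 to 685 were 56.8% A with neither hexamer, a border placed where the excess of U turned into an excess of A. The predicted structure joined these parts, with 138 of 215 base pairs (64.2%) linking a base before the border to a base after it. A pairs with U and the border was placed by these bases, so this share is a description. It was not set against other borders.

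Long runs of A or of U took like shares of both sets, and alternating UA took a larger share of the AU-rich lncRNAs. Base content, which the rule used, bears on all these shares, so they are a description. They were not set against counts expected from base content. A run of 10 or more A occurred in 38 of 382 AU-rich lncRNAs (9.95%, 7.33 to 13.4) and in 10.3% of the remaining records. A run of 10 or more U also occurred in 38 (9.95%), beside 10.1% of the remaining records. Alternating U and A over 10 nt or more was found in 38 AU-rich lncRNAs (9.95%, 7.33 to 13.4) and in 195 remaining records (2.55%, 2.22 to 2.92). The longest such repeat had 40 nt, in TCONS_00251643, followed by 22 nt in TCONS_00130226 and 18 nt in TCONS_00021096. The longest single-base runs were 26 U in TCONS_00226431, 21 A in TCONS_00086512 and 20 U in TCONS_00171960. The longest repeat and the longest run of each base are shown with 20 bases on either side, the repeat or run in capitals.
TCONS_00251643: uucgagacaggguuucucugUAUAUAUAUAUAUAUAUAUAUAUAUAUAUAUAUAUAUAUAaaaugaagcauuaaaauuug
TCONS_00226431: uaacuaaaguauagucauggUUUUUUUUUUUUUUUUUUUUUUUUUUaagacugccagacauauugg
TCONS_00086512: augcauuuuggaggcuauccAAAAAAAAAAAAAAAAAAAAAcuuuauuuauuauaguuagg

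The pentamer around which AU-rich elements are built was nearly universal, and a longer form of the element was rare. AUUUA was present in 374 of 382 AU-rich lncRNAs (97.9%, 95.9 to 98.9) and in 6132 of 7658 remaining records (80.1%, 79.2 to 81.0). It occurred 4.55 times per 1000 nt in the AU-rich lncRNAs and 1.93 times in the remaining records. These counts lay close to those expected from base content. The count expected from the share of each base in each transcript was 2074 in the AU-rich lncRNAs against 2002 observed, a ratio of 0.97 (0.92 to 1.01, Poisson 95% interval). In the remaining records the ratio was 0.89 (0.88 to 0.90). Such intervals cover counting error only, and copies that overlap or lie in transcripts of shared sequence are not independent.

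The nonamer UUAUUUAUU, a form of the element known for binding tristetraprolin, exceeded its expected count in both sets. It was found in 45 of 382 AU-rich lncRNAs (11.8%, 8.92 to 15.4) and in 408 remaining records (5.33%, 4.85 to 5.85). The observed count was 66 in the AU-rich lncRNAs, 2.21 times the expected one (1.71 to 2.81), and 3.12 times (2.88 to 3.39) in the remaining records. A single copy was present in 36 AU-rich lncRNAs, 4 had 2 copies and 5 had 3 or more. TCONS_00070663 held 7 copies within 841 nt and TCONS_00149259 held 6 within 984 nt, together 13 of the 66 copies, and without these transcripts the ratio was 1.78. TCONS_00071702, TCONS_00209788 and TCONS_00247915 held 3 copies each. The copies in the leading transcripts overlapped in tandem, as bases 779 to 841 and 295 to 353 show, with the nonamers in capitals.
TCONS_00070663: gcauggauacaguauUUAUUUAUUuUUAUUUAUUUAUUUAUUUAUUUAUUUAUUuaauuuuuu
TCONS_00149259: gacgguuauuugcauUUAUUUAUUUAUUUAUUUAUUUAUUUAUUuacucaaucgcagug
TCONS_00070663 also had the highest density of the pentamer, 16.6 per 1000 nt, followed by TCONS_00149259 with 11.2 and TCONS_00076448 with 9.85. TCONS_00076448 held 9 pentamers and no nonamer. The complement of the AU-rich lncRNAs held the nonamer in 10.5% and the pentamer in 97.1%, close to the given strand.

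Other sites read from U and A were also frequent. The poly(A) signal AAUAAA, which directs cleavage at the 3′ end, was present in 313 AU-rich lncRNAs (81.9%, 77.8 to 85.5) and in 57.1% of the remaining records, at 1.15 and 1.32 times the expected count. Near the end of a transcript it was uncommon. The last 50 bases held it in 31 AU-rich lncRNAs (8.12%, 5.78 to 11.3), the first 50 bases in 27 (7.07%, 4.90 to 10.1) and the last 50 bases of the complement in 29 (7.59%, 5.34 to 10.7). The interval of each of these shares holds the other 2 shares. In the remaining records the same shares were 3.68%, 3.90% and 3.42%. The form AUUAAA occurred in 70.4% of the AU-rich lncRNAs, at 0.79 times the expected count (0.73 to 0.86). The cytoplasmic polyadenylation element UUUUAU, the site of CPEB, occurred in 81.2% at 1.16 times.

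The site of the Pumilio proteins, UGUANAUA, was found in 112 AU-rich lncRNAs (29.3%, 24.98 to 34.1) and in 1190 remaining records (15.5%, 14.7 to 16.4). Its observed count was 1.35 times the expected one (1.14 to 1.58) in the former and 1.09 times (1.04 to 1.15) in the latter, so the intervals of the ratios overlapped. UGCAUG, the site of the neuronal splicing factors of the RBFOX family, occurred in 105 AU-rich lncRNAs (27.5%, 23.3 to 32.2) and in 2725 remaining records (35.6%, 34.5 to 36.7). Its ratio of observed to expected count was 2.07 (1.73 to 2.44) beside 1.79 (1.73 to 1.85). ACUAA, the core bound by QKI, stood at 0.70 beside 0.69, UCUUC, a core bound by PTB, at 1.45 beside 1.65, and GUAAGU, a strong 5′ splice site, at 0.74 in both sets. A match to such letters is a description and shows no binding.

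**Figure D3:**
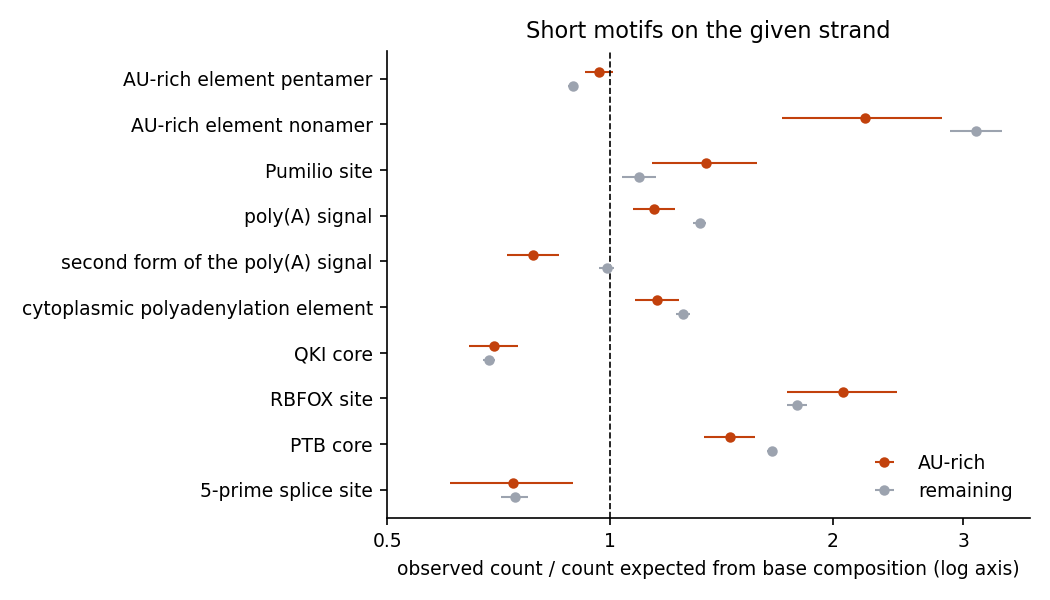
The observed count of each motif except CpG divided by the count expected from base composition (horizontal axis, log scale) for AU-rich (orange) and remaining (grey) lncRNAs, where bars are Poisson 95% intervals and the dashed line marks equality. The nonamer of the AU-rich element and the RBFOX site lie furthest above 1 in the AU-rich lncRNAs, and the QKI core and the 5′ splice site lie lowest of the motifs shown.

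The dinucleotide CpG was scarce. It was observed at 0.149 times the expected count in the AU-rich lncRNAs (0.142 to 0.157) and at 0.208 times in the remaining records (0.207 to 0.210), and 19 AU-rich lncRNAs had none at all (4.97%, 3.21 to 7.64), against 0.679% of the remaining records. Base content, which the rule used, and length bear on the share with no CpG, so that share is a description. In the mouse genome CpG is known to be depleted, since methylated cytosine mutates readily. TCONS_00243983 held 13 CpG in 306 nt, 2.57 times its expected count, and TCONS_00243990 held 17 in 424 nt, 1.74 times. They ranked 1 and 2 among all records with a ratio, and the next AU-rich lncRNA, TCONS_00110522, was at 0.49. The reverse dinucleotide GpC was at 0.99 and 1.12 times its expected count in the same pair of transcripts. TCONS_00243990 and TCONS_00110522 were picked out with their values in view.

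The AU-rich lncRNAs had weaker predicted folding energies. The median free energy of the deposited structures was -21.4 kcal/mol per 100 nt in the AU-rich lncRNAs, with quartiles of -22.3 and -20.3, and -28.1 in the remaining records. Energy follows GC content by the way it is computed, so this gap is a description. A line fitted to the remaining records had a slope of -0.703 kcal/mol per 100 nt for each percent of G and C. Carried on to lower GC content, this line lay above 268 of the 382 AU-rich lncRNAs (70.2%), and the median gap was -0.81 kcal/mol per 100 nt, smaller than the SD of 1.93 of the remaining records about the line. The gap depended on the shape of the line, at -0.24 with a squared term and -0.42 with a line fitted to remaining records below 40% GC content. Among the AU-rich lncRNAs alone the slope was -0.482.

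**Figure D4:**
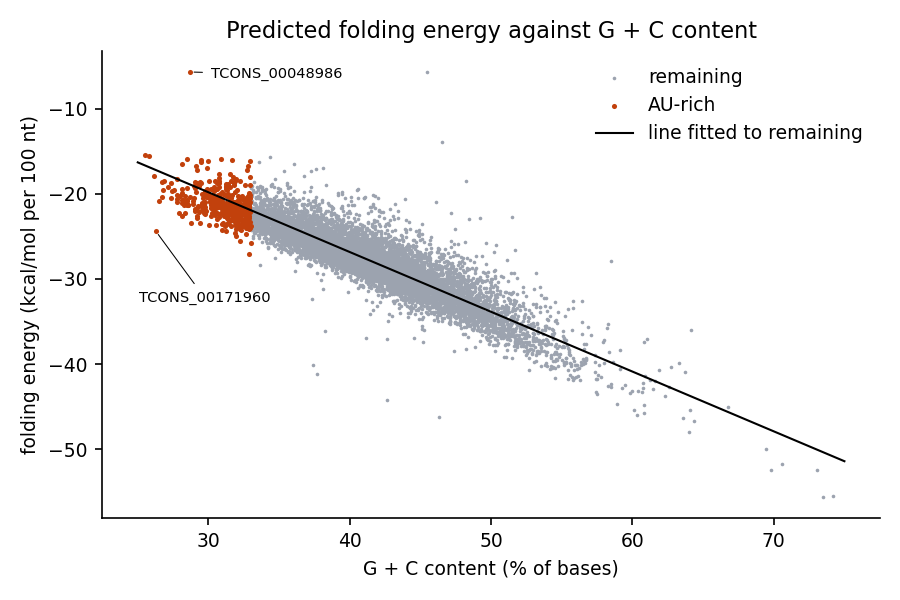
Deposited folding energy in kcal/mol per 100 nt (vertical axis) against GC content in percent (horizontal axis) for all 8040 new lncRNAs, with the line fitted to the remaining records (grey). Most AU-rich lncRNAs (orange) lie below the carried-on line, TCONS_00048986 lies 13.2 above it and TCONS_00171960 lies furthest below it.

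Of the 3 transcripts with many hexamers or a switch from U to A, 2 were extremes of folding and TCONS_00171957 was not, with a gap of -0.80 and 61.9% of its bases paired. TCONS_00048986 had -5.67 kcal/mol per 100 nt and only 20.7% of its bases paired, the second lowest share of all records, and lay 13.2 above the line. TCONS_00208150 and TCONS_00243983 came next in weak folding, with -15.4 and -15.5. TCONS_00171960 had -24.4, a gap of -7.19 and the largest downward departure of any AU-rich lncRNA. The lowest energies per 100 nt were -27.0 in TCONS_00040714, -25.8 in TCONS_00127822 and -25.6 in TCONS_00250646, all with a GC content above 32%.

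The share of paired bases was slightly lower. Paired bases made up 57.2% ± 3.75 of an AU-rich lncRNA (mean, SD, n = 382) and 58.7% ± 3.24 of a remaining record (n = 7658). In a linear model with standard errors clustered by transcripts that share sequence, the difference was -1.56 percentage points (SE 0.201, 95% interval -1.95 to -1.17, n = 382 and 7658, two-sided adjusted p = 1.1e-14 over 4 tests). This difference was smaller than the SD between transcripts. Without TCONS_00048986 it was -1.46. Predicted pairing depends on base content, which the rule used, so the tested difference is not independent of the rule. Median pairing was 59.0% up to 28% GC content, 57.9% from 28% to 30%, 57.7% from 30% to 32% and 57.3% from 32% to 33%. The remaining records had 58.9%, and those from 33% to 35% had 57.6%, so the lower share was not particular to the AU-rich lncRNAs. Highest among the AU-rich lncRNAs were TCONS_00247973 with 65.7%, TCONS_00076448 with 65.4% and TCONS_00047567 with 64.5%. TCONS_00227154 with 45.6% and TCONS_00080363 with 46.5% were lowest after TCONS_00048986. These p-values measure the spread between transcripts, which all came from the same 6 libraries, and not that between animals.

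The kinds of base pairs follow from the base content that the rule fixed and are given as a description. The median share of A-U pairs was 58.9% in the AU-rich lncRNAs and 45.7% in the remaining records, that of G-C pairs was 29.7% and 42.8%, and that of G-U pairs was 11.1% and 11.2%. Of all G in the AU-rich lncRNAs 75.3% were paired, against 54.8% of C, 59.5% of U and 48.9% of A. In the remaining records the shares were 76.03%, 60.1%, 58.5% and 46.3%. The longest unbroken stem had a median of 12 bp, against 11 bp, and the longest unpaired stretch one of 23 nt, against 21 nt. Hairpin loops numbered 14.4 per 1000 nt, against 15.2. The longest stem of any AU-rich lncRNA had 26 bp, in TCONS_00140990, picked out after the values were seen.

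The AU-rich lncRNAs were shorter. The shortest was TCONS_00188786 with 259 nt, followed by TCONS_00208150 and TCONS_00243983, and the longest were TCONS_00066420 with 6781 nt, TCONS_00071702 with 6741 nt and TCONS_00248616 with 5801 nt. The median was 1003 nt, with quartiles of 742 and 1379 nt, against 1126 nt in the remaining records. On the log2 scale the mean difference was -0.19 (SE 0.041, n = 382 and 7658, same model, adjusted p = 3.4e-06), which is a ratio of geometric means of 0.877 (0.830 to 0.927). In the same clustered linear model the difference was -0.11 with a limit of 34% (n = 623 and 7417, adjusted p = 0.0012) and -0.10 within transcripts of 500 to 2000 nt (n = 320 and 6458, adjusted p = 0.00057). Remaining records from 35% to 40% GC content had a median of 1201 nt, and those above 45% had 1031 nt. The AU-rich lncRNAs from 32% to 33% had 1083 nt, so a short length was not particular to the AU-rich lncRNAs.

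Open reading frames were shorter on both strands. The longest frame from AUG to a stop codon had a median of 43 codons on the given strand of the AU-rich lncRNAs, with quartiles of 32.3 and 55, and of 53 in the remaining records. At equal length the difference of means was -6.94 codons (SE 0.752, 95% interval -8.41 to -5.47, n = 382 and 7658, adjusted p = 5.7e-20 in the clustered linear model). On the complement the medians were 43.5 and 57 codons, and the difference at equal length was -10.1 codons (SE 1.07, -12.2 to -7.99, n = 382 and 7658, adjusted p = 2.2e-20 in the clustered linear model). Frame length depends on base content, which the rule used, so the tested differences on both strands are not independent of the rule. The longest frames on the given strand had 96 codons in TCONS_00162353 and 91 in TCONS_00066420 and TCONS_00249263. On the given strand no record of either set had a frame of 100 codons or more, and the longest in the remaining records had 99. All records had been selected for no coding potential, so this absence is not a result about the AU-rich lncRNAs. The given-strand test used values of records selected in this way. Whether the selection cut off longer frames was not tested.

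On the complement, where frames of that length did occur, 8 AU-rich lncRNAs had a frame of 100 codons or more (2.09%, 1.06 to 4.08), against 592 remaining records (7.73%, 7.15 to 8.35). Of the remaining records, 18 of 500 from 33% to 35% GC content had one, and 294 of 2236 above 45%. A low share was thus not particular to the AU-rich lncRNAs. Their longest frames had 170 codons in TCONS_00020827, 123 in TCONS_00180266 and 122 in TCONS_00012218. None of the 93 AU-rich lncRNAs at or below 30% GC content had one, which by a floor of 3 counts allows a share of up to 3.23%. Stop codons moved with these results. In any frame they occurred at a median of 70.0 per 1000 nt on the given strand of the AU-rich lncRNAs and 53.0 in the remaining records. UAA accounted for most of this, with 33.5 against 18.9, while UAG stood at 15.6 against 13.6 and UGA at 20.6 against 19.8. UAA is made of A and U alone, so its density follows in part from the rule. The start codon AUG was also denser, with 21.8 per 1000 nt against 18.8. The part of the stop codons in the shorter frames was not tested.

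Within the AU-rich lncRNAs classes of lower GC content had lower medians. The median on the given strand was 35 codons at or below 28% (19 transcripts), 40 from 28% to 30% (74), 43 from 30% to 32% (159) and 47 from 32% to 33% (130). The neighbouring class of remaining records, from 33% to 35%, had 48. These medians were not taken at equal length. In the same order of classes the median length was 914, 887, 1017 and 1083 nt, and 1142 nt from 33% to 35%. The quartiles of neighbouring classes overlapped throughout, and no step occurred at the limit.

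**Figure D5:**
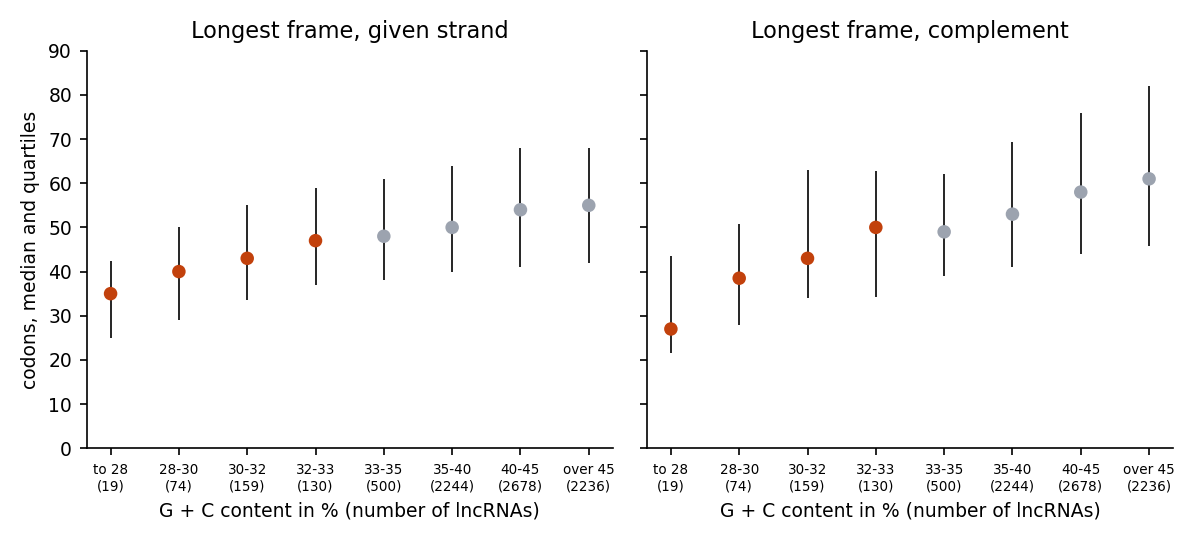
The longest open reading frame in codons (vertical axis, points are medians and bars run between quartiles) in classes of GC content in percent (horizontal axis, number of lncRNAs in brackets), on the given strand (left) and on the complement (right), AU-rich in orange and remaining in grey. On the given strand the median falls from 55 codons above 45% GC content to 35 at or below 28%, with no adjustment for transcript length.

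The share of transcripts with sequence in common with another record was close to that of the remaining records. An exact stretch of 50 bases was shared with another record by 136 of 382 AU-rich lncRNAs, directly or through a chain of records (35.6%, 31.0 to 40.5), and by 38.6% of the remaining records (37.5 to 39.7). At 100 bases it was 127 (33.2%, 28.7 to 38.1) and 34.3%. The largest chain at 50 bases held 347 records, of which 14 were AU-rich, and at 100 bases the largest chain with an AU-rich lncRNA held 9 records. The 14 spanned 28.4% to 32.9% GC content and 615 to 2842 nt. They included TCONS_00130226 with its UA repeat, TCONS_00185363 with its excess of A and TCONS_00020827 with the longest frame on the complement.

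In the group with the most AU-rich lncRNAs at 100 bases, 6 of 7 records were AU-rich and the seventh, TCONS_00078492, was at 33.4%. TCONS_00076426 and TCONS_00081459 shared an unbroken stretch of 1210 bases, and TCONS_00076423 and TCONS_00080885 one of 1147 bases. Their GC contents ranged from 28.2% to 32.2%, a spread that lay on transcripts of partly identical sequence. These 6 were chosen by group size after the values were seen. Only 4 AU-rich lncRNAs (1.05%, 0.408 to 2.66) shared 50 bases with the complement of another record, against 245 remaining records (3.20%, 2.83 to 3.62).

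Overlap with annotated start regions and small RNAs was looked for next. Among 32851 promoter windows of RefSeq genes (mouse assembly GRCm38.p6), stretches of 50 bases or more were shared with 9 AU-rich lncRNAs in 25 pairings, some of them with several genes each (2.36% of 382, 1.24 to 4.42), beside 287 remaining records (3.75%, 3.35 to 4.20). The longest shared stretch had 86 bases, between TCONS_00214261 and the window of Gm29729, and none reached 100 bases. None of the 1005 RefSeq miRNA hairpins lay whole within an AU-rich lncRNA or a remaining record on either strand.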

How the data were processed

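Cortex RNA was sequenced by the authors in 3 control and 3 SAH libraries. Ribosomal RNA was removed, libraries were prepared with a dUTP-labelled strand and sequenced as pairs, and reads were aligned with TopHat2 to mm10 (tools and build from the submitters' processing notes). The assembler, the coding filter and the folding program are not given in the sources used here. The deposited file has 3 lines per record, and its energies carry no unit. RNAeval (ViennaRNA 2.7.2, Turner 1999 parameters, dangling-end setting 1) returned the deposited energy within 0.01 for 382 of 382 AU-rich records, which fixes the unit as kcal/mol.

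Length, base content, pairing, frames (AUG to stop), runs and motifs were computed from each record (Python 3.11.15, numpy 2.4.6, pandas 2.3.3, scipy 1.17.1). Motif matches may overlap, and the expected count is the product of the base shares of each transcript. The 4 tests were linear models (statsmodels 0.14.6) with standard errors clustered by groups sharing 50 bases, two-sided, Benjamini-Hochberg adjusted over the 4, and log2 length as a covariate for frames. Shares carry Wilson 95% intervals, which cover counting error only, and motif ratios Poisson intervals. The scripts were tested on simulated data. Members, motifs and alternatives were chosen with earlier results of these data known. Transcripts named are the extremes of each measure (the 10 lowest in GC content, otherwise up to 5), the largest sequence-sharing group and the 3 on each side of the limit, by a fixed rule. Others are marked as chosen after their values were seen. One sequence stretch is not reported here. Not analysed here were expression, genome position and exons.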

Additional observations from a re-analysis of the deposited data

How the results depend on the processing

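All 4 tests kept their direction and stayed past the threshold of 0.05 under every alternative run: limits of 32% and 34%, the longest record of each sequence-sharing group, groups at 100 bases as clusters, transcripts of 500 to 2000 nt, log2 length added or left out, and frames open to the end. The difference ranged from -0.25 to -0.10 for log2 length, from -1.85 to -1.33 percentage points for pairing, from -9.30 to -6.28 codons on the given strand and from -12.8 to -10.02 codons on the complement. The highest adjusted p among them was 0.0012, for length. The number of AU-rich lncRNAs followed the limit, with 252 at 32% and 623 at 34%, and was 289 with the longest record of each group. The shares, medians and ratios with no test lay within the spread or interval of the value reported. The alternatives without TCONS_00048986 and without the transcripts of most nonamers were added after seeing the data. No paired analysis was possible because the records hold no values per library, and no library could be left out for the same reason. The records give no coverage per transcript, so an assembled end cannot be weighed against it.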
